A study of Mus musculus with 26 samples.

Results

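The genes of the enzymes and helper proteins that turn newly made collagen chains into secreted, processed procollagen were followed through the healing of the infarcted mouse heart. They are 3 collagen prolyl 4-hydroxylase subunits (P4ha1, P4ha2, P4ha3), the prolyl 3-hydroxylase P3h1, 3 lysyl hydroxylases (Plod1, Plod2, Plod3), the collagen chaperone Serpinh1, the procollagen C-proteinase Bmp1 and its enhancer Pcolce. They were taken by gene symbol from a table of 24421 genes, and all 10 were found in each of the 26 libraries. The libraries are bulk RNA sequencing of cardiac stromal cells sorted as negative for CD45 and CD31 and positive for a nuclear green fluorescent protein reported by Pdgfra, the receptor gene that marks cardiac fibroblasts. Sorted cells were split by Sca-1, a surface protein encoded by Ly6a, into a positive and a negative gate. All mice were C57BL/6 with the Pdgfra H2B-EGFP reporter allele, so the reference hearts carry it too. The reference hearts were undamaged, and the labels name no sham operation. The groups were 9 libraries of undamaged hearts (5 Sca-1 positive, 4 negative), 6 taken at day 7 after the left anterior descending artery was tied off to make an infarct (1 positive, 1 negative, 4 with no gate in the label), 4 from day 14 (2 and 2) and 7 from day 28 (4 and 3). Age and sex are not given in the sources used here. Whether libraries of a group are separate animals is likewise not given, so each p measures the spread between libraries, which may be technical.

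Collagen chains are modified in the endoplasmic reticulum before they fold. Prolyl 4-hydroxylases hydroxylate prolines so that the triple helix is stable at body temperature, each enzyme being built from an alpha subunit (P4ha1, P4ha2 or P4ha3) and the shared beta subunit P4hb. Lysyl hydroxylases modify lysines that later form crosslinks, and PLOD2 acts on the telopeptides that give the stable crosslinks typical of scars. All these hydroxylases use iron, oxygen, ascorbate and 2-oxoglutarate. Serpinh1, also called HSP47, binds the folded helix on its way to the Golgi, and Bmp1 removes the C-terminal propeptide outside the cell so that fibrils can assemble, helped by Pcolce.

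Libraries held 6792786 to 48836726 counts in genes, at which 3 counts equal 0.0614 to 0.442 CPM. Levels below are CPM, the counts of a gene relative to the library size after TMM scaling, and values after ± are SD for CPM and standard errors for log2 differences. The 6 fibroblast markers summed to 48077 to 84279.6 CPM in every library, and Pdgfra itself was present at 342 to 810.1 CPM. Within that sum 4 markers were called lower at day 7 and 1, Col1a1, higher. Gsn averaged 15913 CPM at day 7 and 44905 CPM in undamaged hearts (-1.50 ± 0.20, edgeR adjusted p = 4.55e-06), Dcn 9250.4 and 18519 CPM (edgeR adjusted p = 1.42e-05), Tcf21 121 and 228 CPM (-0.92 ± 0.21, edgeR adjusted p = 0.00219) and Pdgfra 433 and 596 CPM (-0.46 ± 0.15, edgeR adjusted p = 0.0253). At day 14, 3 were lower and 1 higher, and at day 28, 0 were lower and 2 higher. Markers of other cells also moved with time after ligation. The 4 epicardial markers summed to a median of 1.59 CPM in undamaged, 36.0 at day 7, 63.2 at day 14 and 16.7 at day 28 (ranges 0 to 8.91, 6.22 to 69.2, 23.7 to 161 and 8.81 to 92.8), and 4, 3 and 2 of them were called higher than undamaged. The 8 leukocyte markers summed to a median of 39.0 CPM at day 7 and 15.4 CPM in undamaged hearts (ranges 30.5 to 60.5 and 11.1 to 37.7), with 4 of 8 called higher. The 6 endothelial markers summed to a median of 131 CPM at day 7 and 307 CPM in undamaged hearts (ranges 104 to 177 and 190.2 to 351), with all 6 called lower. None of these markers was at 0 in all libraries of a time point, and their part in the results below was not tested. Nor can fewer cells of a type be told apart from less RNA per cell in bulk libraries. Xist was above 20 CPM in 6 libraries, 4 of day 7 and 2 of day 14, and in none of the undamaged or day 28 libraries. Xist thus goes partly with time in the comparisons of days 7 and 14. What it marks in these libraries cannot be fully told apart from time there, and calls lost without the 6 libraries are given below. Both undamaged libraries with code B7 had low values for most of the 10 genes, and they and the Sca-1 negative library A6 had the fewest detected genes of the undamaged group (12325 to 12977).

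Day 7 was the time at which most of these genes were raised. Of the 10 genes, 7 were called higher and 0 lower at day 7 against undamaged, where 11.5% of the 13392 genes tested were called higher and 11.2% lower (edgeR quasi-likelihood test, Benjamini-Hochberg adjusted p under 0.05). At day 14, 4 were higher and 0 lower, where 5.84% of genes were higher and 3.14% lower. At day 28, 2 were higher and 0 lower, where 3.45% of genes were higher and 1.94% lower. The median log2 difference of the 10 genes was 0.69 at day 7, 0.31 at day 14 and 0.08 at day 28, and that of all genes was -0.04, -0.03 and 0.00. All 10 genes passed the filter on low counts, but P4ha3 had only 0 to 73 reads in undamaged libraries, so that it could pass through the injured libraries, where it is high. The libraries of day 7 lay wholly above those of undamaged hearts for 5 of the 10 genes (4.47% of all genes), those of day 14 for 4 (4.35%) and those of day 28 for 1, P4ha3 (0.933%). Without the 6 libraries with Xist, which leaves 2 of day 7, the calls of P4ha2 (0.64, edgeR adjusted p = 0.0700), Plod3 (0.85, edgeR adjusted p = 0.0950) and Serpinh1 (0.80, edgeR adjusted p = 0.0605) at day 7 were lost, while P4ha3, Plod2, P3h1 and Bmp1 passed.

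**Figure D1:**
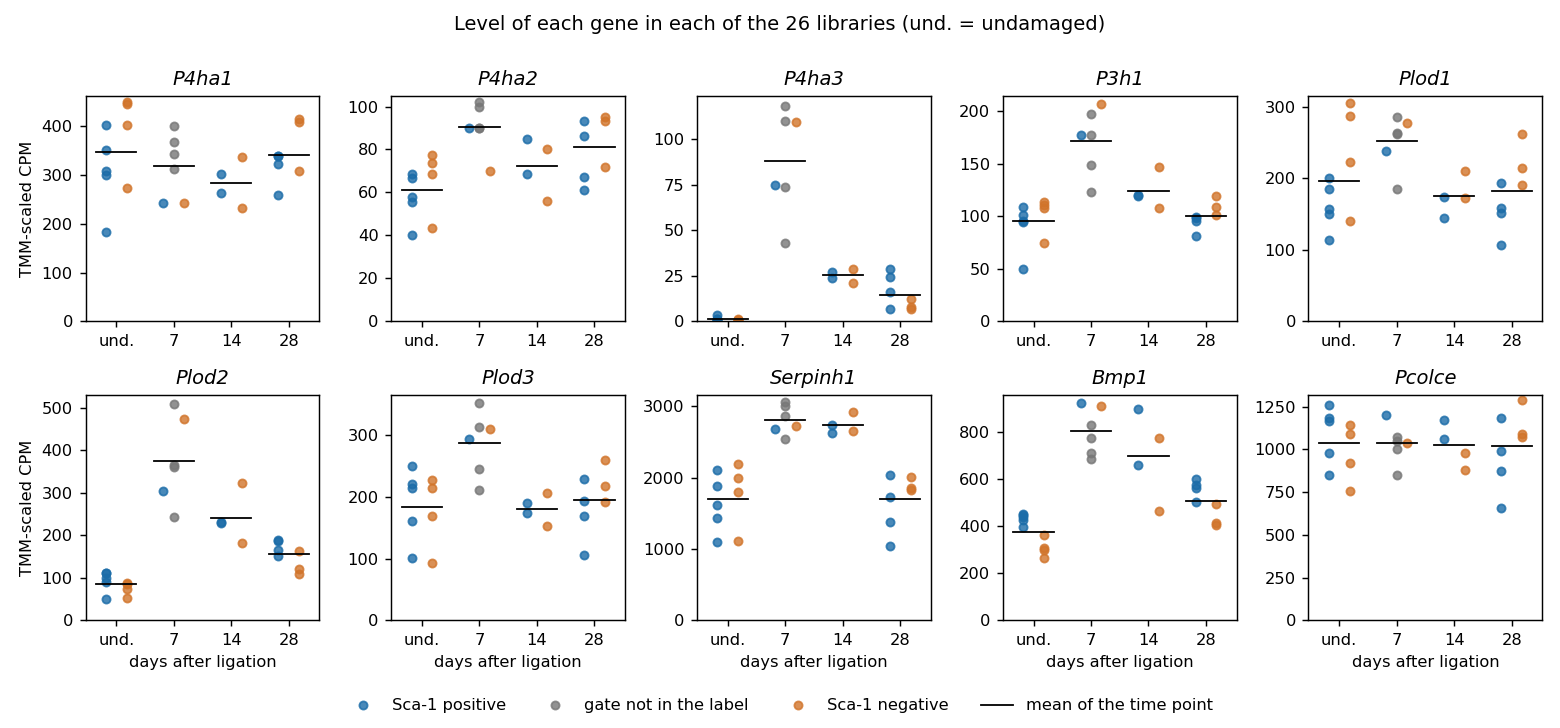
TMM-scaled CPM (vertical axes, linear, from 0) of each gene in each library at each time (horizontal axes, days after ligation), coloured by Sca-1 gate, with the mean of the time point as a line. P4ha3 lies between 43.1 and 118 CPM at day 7 and between 0 and 3.60 CPM in undamaged hearts, while P4ha1 and Pcolce overlap between all times.

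P4ha3, the alpha subunit of lowest level in undamaged hearts, had the largest difference of the 10 genes at each time. It had 0, 0.595 and 3.60 CPM (lowest, median and highest) in 9 undamaged libraries, 43.1, 92.3 and 118 CPM in 6 day 7 libraries and 6.49, 12.1 and 28.9 CPM in 7 day 28 libraries. At day 14 it had 28.5 and 21.2 CPM in the Sca-1 negative libraries D1 and D9, and 27.3 and 24.0 CPM in the positive libraries D1 and D9. Every library from an injured heart was above every undamaged library. The log2 difference from undamaged was 6.32 ± 0.46 at day 7 (edgeR adjusted p = 1.20e-10), 4.51 ± 0.46 at day 14 (edgeR adjusted p = 1.69e-07) and 3.72 ± 0.43 at day 28 (edgeR adjusted p = 5.99e-06). Undamaged libraries held few reads of P4ha3, and its fitted size at day 7 ran from 6.18 to 6.83 over the fits that leave out a library. P4ha3 was not detected in the undamaged Sca-1 negative library A6, where 3 counts would equal 0.276 CPM.

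P4ha1 and P4ha2, the other alpha subunits, had much smaller log2 differences than P4ha3. P4ha1 had 183, 351 and 450.1 CPM in undamaged libraries, 243, 328 and 401 CPM at day 7 and 259.9, 339 and 416 CPM at day 28. At day 14 it had 337 and 233 CPM in the negative libraries and 302 and 264 CPM in the positive ones. The groups overlapped at every time, and no difference from undamaged was called (-0.12 ± 0.17 at day 7, edgeR adjusted p = 0.648; -0.29 ± 0.19 at day 14, edgeR adjusted p = 0.421). P4ha2 had 70.1, 90.1 and 102 CPM at day 7, against 40.1, 66.8 and 77.4 CPM in undamaged libraries, and 5 of the 6 day 7 libraries were above all undamaged ones. It was higher at day 7 by 0.56 ± 0.14 (edgeR adjusted p = 0.00483). Its differences of 0.24 ± 0.16 at day 14 and 0.40 ± 0.14 at day 28 were not called (edgeR adjusted p = 0.427 and 0.0787), with 60.9, 86.3 and 95.1 CPM at day 28. The day 28 difference passed in the libraries with prefixed codes, whose titles put further letters or digits before the library code (0.68, edgeR adjusted p = 0.0239, against a value of 0.03 in those without), without the undamaged negative library A6 (0.45, edgeR adjusted p = 0.0474) and without the day 28 positive library F2 (0.46, edgeR adjusted p = 0.0495).

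**Figure D2:**
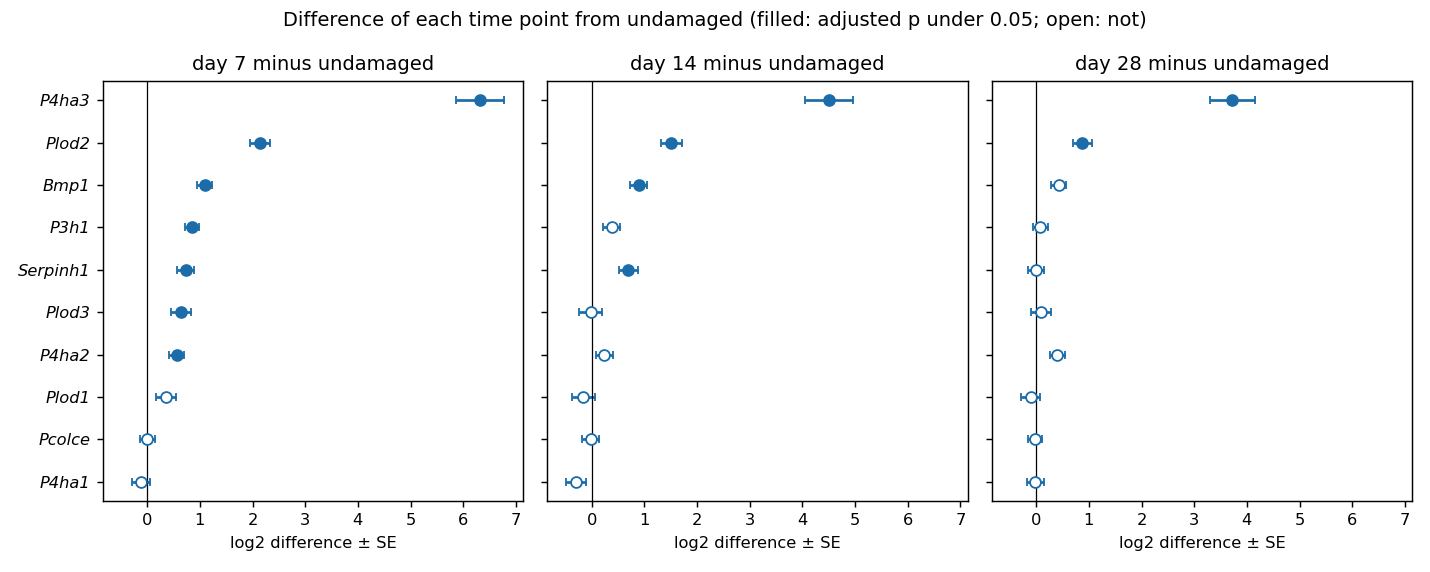
Log2 difference from undamaged (horizontal axes, log2 scale, ± SE) of each gene at days 7, 14 and 28, from the edgeR fit of 26 libraries. Filled points passed an adjusted p of 0.05: 7 genes at day 7, 4 at day 14 and 2 at day 28, with P4ha3 furthest from 0 in each panel.

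The 3 alpha subunit genes lie on different chromosomes, P4ha1 at chr10:59323296-59373304, P4ha2 at chr11:54100095-54131665 and P4ha3 at chr7:100285520-100319699, all on the plus strand (GRCm38, GENCODE M21). Because the log2 differences of these paralogs were so unlike, the 250 bases before the RefSeq start of each (GRCm38.p6, plus strand) are shown here, the windows being chr10:59323046-59323295, chr11:54100674-54100923 and chr7:100285270-100285519. Capitals mark matches on either strand to any of 7 motifs: the TATA box TATAAA, the CCAAT box CCAAT, the GC box GGGCGG, the hypoxia response core ACGTG, the heat shock pair GAANNTTC, the AP-1 site TGACTCA and the SMAD element CAGAC.
P4ha1: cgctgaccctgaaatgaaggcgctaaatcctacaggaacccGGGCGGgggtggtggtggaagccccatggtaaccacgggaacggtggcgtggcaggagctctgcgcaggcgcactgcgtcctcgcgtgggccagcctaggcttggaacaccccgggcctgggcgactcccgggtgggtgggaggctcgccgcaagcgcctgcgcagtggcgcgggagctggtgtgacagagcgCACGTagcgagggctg
P4ha2: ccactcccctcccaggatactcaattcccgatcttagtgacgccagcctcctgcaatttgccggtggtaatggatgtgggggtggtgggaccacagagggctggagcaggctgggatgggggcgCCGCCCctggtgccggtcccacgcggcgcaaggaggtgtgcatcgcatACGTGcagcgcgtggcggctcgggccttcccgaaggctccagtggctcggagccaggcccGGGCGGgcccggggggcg
P4ha3: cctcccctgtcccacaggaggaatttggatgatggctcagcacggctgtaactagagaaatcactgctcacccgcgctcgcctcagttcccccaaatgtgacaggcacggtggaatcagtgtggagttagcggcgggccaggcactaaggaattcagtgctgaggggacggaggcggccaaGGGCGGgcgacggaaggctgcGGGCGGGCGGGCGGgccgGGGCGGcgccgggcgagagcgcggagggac
The windows are rich in G and C, at 69.6% for P4ha1, 70.0% for P4ha2 and 67.2% for P4ha3. The P4ha3 window holds 5 matches to GGGCGG, 3 of them in a tandem repeat in which they overlap, while that of P4ha2 holds 2 and that of P4ha1 holds 1. At least 1 match to GGGCGG is found in 32.7% of the 32817 RefSeq promoter windows of this length, and the share with 5 was not counted. The windows of P4ha1 and P4ha2 each hold 1 match to ACGTG, found in 16.6% of windows, and that of P4ha3 holds 0. None of the 3 windows matches the other 5 motifs (TATAAA in 12.4% of windows, CCAAT in 33.8%, GAANNTTC in 6.69%, TGACTCA in 4.46%, CAGAC in 42.2%). RefSeq windows were at hand for 8 of the 10 genes, Plod2 and Bmp1 being the others. ACGTG was also matched for Plod3 and Serpinh1 (1 match each) and P3h1 (0 in window 1 and 2 in window 2). It was not matched for Plod1 or Pcolce. The P4ha2 window lies within the GENCODE span of the gene but in no annotated exon, and the windows of P4ha1 and P4ha3 lie before the gene.

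The lysyl hydroxylase Plod2 was the only member of its family to be raised at every time after ligation. It had 50.3, 88.5 and 112 CPM in undamaged libraries, 244, 363 and 508 CPM at day 7 and 109.9, 164 and 189.6 CPM at day 28. At day 14 it had 323 and 181 CPM in the negative libraries and 232 and 229.8 CPM in the positive ones. All day 7 and day 14 libraries, and 6 of 7 at day 28, were above all undamaged libraries. The log2 difference was 2.14 ± 0.19 at day 7 (edgeR adjusted p = 2.41e-09), 1.51 ± 0.20 at day 14 (edgeR adjusted p = 1.01e-05) and 0.87 ± 0.18 at day 28 (edgeR adjusted p = 0.00282).

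Plod3, which also glycosylates hydroxylysine, had 212, 303 and 353 CPM at day 7, against 92.8, 215 and 251 CPM in undamaged libraries. The groups overlapped, with 4 of 6 day 7 libraries above all undamaged ones. It was called higher at day 7 by 0.65 ± 0.19 (edgeR adjusted p = 0.0161). That call was lost with counts of both gates of a code summed, the replicate block (0.57, edgeR adjusted p = 0.0536), and without the 3 undamaged libraries of fewest detected genes (0.43, edgeR adjusted p = 0.0587). Its differences at day 14 (-0.02 ± 0.22, edgeR adjusted p = 0.972) and day 28 (0.09 ± 0.19, edgeR adjusted p = 0.852) were not called. The day 28 value differed in sign between the libraries with a prefix before their code in the title (0.76, edgeR adjusted p = 0.0233) and those without (-0.54, not called). Among Sca-1 positive libraries without a prefix it was called lower (-0.76, edgeR adjusted p = 0.0371). The day 28 libraries without a prefix are only E2, F2 and E4. In E2, 55.8% of reads lay outside genes, and its 106 CPM of Plod3 was the lowest of day 28. Plod3 overlaps Znhit1 on the other strand, and the strand setting of the counting is not given in the sources used here, so reads of the overlap can belong to either. Plod1, the lysyl hydroxylase of helical lysines, had 114, 185 and 306 CPM in undamaged libraries, 185, 263 and 286 CPM at day 7 and 107, 191 and 262 CPM at day 28. These ranges overlapped, and its difference at day 7 (0.36 ± 0.19, edgeR adjusted p = 0.176) was not called.

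The mix of paralogs within each family is described here as shares of the summed CPM per kilobase of exon, without a test. P4ha1 made up 89.0% ± 1.18 of the alpha subunit sum in undamaged hearts, 64.2% ± 7.67 at day 7, 77.8% ± 0.943 at day 14 and 82.4% ± 3.60 at day 28 (SD, n = 9, 6, 4 and 7). P4ha3 made up 0.420% ± 0.451, 23.7% ± 7.97, 9.12% ± 0.255 and 4.75% ± 2.94 at the same times. So even at day 7 the P4ha1 transcript was the most abundant of the 3 per kilobase in each library, where its share was 56.1% to 76.6% and that of P4ha3 was 10.8% to 33.2%. P4ha2 stayed between 9.38% and 14.8% in all libraries. The sum of the 3 averaged 120.1 ± 15.3 CPM per kilobase at day 7 and 94.4 ± 23.4 in undamaged hearts.

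Among the lysyl hydroxylases the share of Plod2 was 18.7% ± 3.11 in undamaged hearts, 40.4% ± 3.52 at day 7, 40.1% ± 3.45 at day 14 and 30.2% ± 9.76 at day 28. Plod3 held the largest mean share in undamaged hearts (47.1% ± 5.11) and at day 28 (43.0% ± 5.96), and Plod2 held it at days 7 and 14, ahead of Plod3 at 37.6% ± 2.97 and 36.4% ± 2.15. The Plod2 share at day 28 was the most spread, at 17.5% to 47.3%. The highest value was that of the Sca-1 positive library E2, in which 55.8% of reads lay outside genes, against 5.53% to 18.7% in the other libraries. Plod1 made up 22.0% ± 1.61 of the sum at day 7, against 34.1% ± 6.94 in undamaged hearts, while its own level was not called different. Without division by exon length the shares of P4ha3 were 18.1% ± 6.37 at day 7 and 0.304% ± 0.326 in undamaged hearts, and those of Plod2 were 40.6% ± 3.47 and 18.6% ± 3.39.

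**Figure D3:**
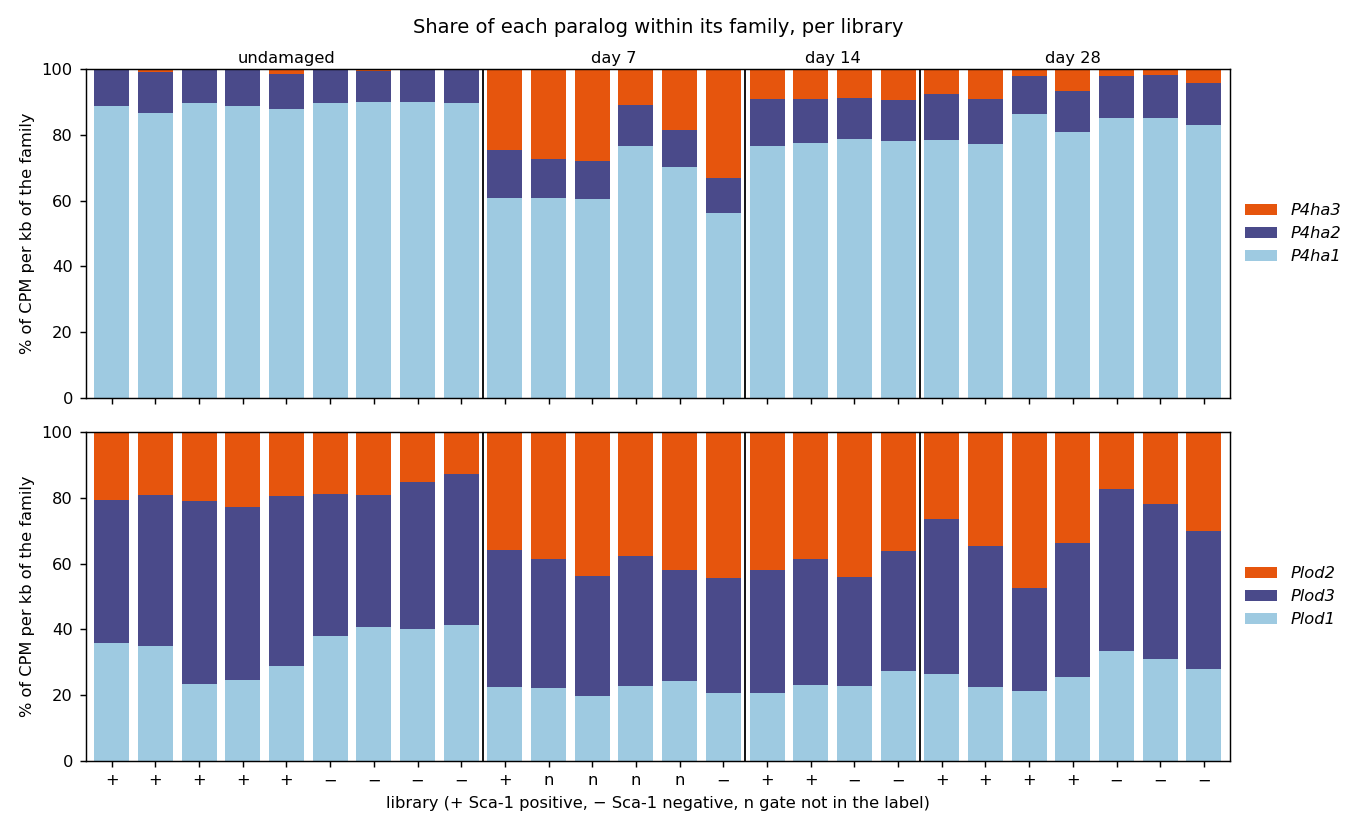
Share (vertical axes, percent of the family's summed CPM per kilobase) of each paralog in each of the 26 libraries, ordered by time and gate. P4ha3 takes 10.8% to 33.2% of the alpha subunits at day 7 and at most 1.34% in undamaged hearts, and Plod2 takes 35.9% to 44.5% of the lysyl hydroxylases at day 7 and 12.6% to 22.8% in undamaged hearts.

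P3h1 and Serpinh1 act beside the hydroxylases in the endoplasmic reticulum. P3h1, which hydroxylates a few prolines of the collagen I chain and is mutated in a recessive form of brittle bone disease, had 123, 177 and 207 CPM at day 7, against 50.2, 101 and 114 CPM in undamaged libraries. All day 7 libraries were above all undamaged ones, and P3h1 was higher by 0.85 ± 0.14 (edgeR adjusted p = 7.87e-05). At day 14 it had 147 and 108 CPM in the negative libraries and 119 and 120.4 CPM in the positive ones, a difference of 0.38 ± 0.16 that was not called (edgeR adjusted p = 0.161). At day 28 it had 81.0, 99.3 and 119 CPM, within the undamaged range in 6 of 7 libraries.

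Serpinh1, the most abundant of the 10 transcripts per kilobase, had 1091, 1799 and 2190.3 CPM in undamaged libraries, 2542, 2786 and 3058 CPM at day 7 and 1036, 1827 and 2036 CPM at day 28. At day 14 it had 2912 and 2649 CPM in the negative libraries and 2628 and 2734 CPM in the positive ones. All day 7 and day 14 libraries were above all undamaged ones, and those of day 28 overlapped them. Serpinh1 was higher by 0.73 ± 0.16 at day 7 (edgeR adjusted p = 0.00124) and by 0.69 ± 0.18 at day 14 (edgeR adjusted p = 0.0120). The day 14 call was lost with the counts of a code summed as a replicate block (0.65, edgeR adjusted p = 0.167), without the libraries with Xist (0.71, edgeR adjusted p = 0.158) and without the Sca-1 negative day 14 library D1 (0.66, edgeR adjusted p = 0.0543).

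Of the processing genes, Bmp1 was raised at days 7 and 14, while no difference of its enhancer Pcolce was called. Bmp1 had 265, 398 and 451 CPM in undamaged libraries, 686, 802 and 925 CPM at day 7 and 405, 504 and 601 CPM at day 28. At day 14 it had 776 and 463 CPM in the negative libraries and 898 and 659.7 CPM in the positive ones. All day 7 and day 14 libraries were above all undamaged ones, as were 5 of 7 at day 28. Its log2 difference was 1.09 ± 0.14 at day 7 (edgeR adjusted p = 3.56e-06) and 0.89 ± 0.16 at day 14 (edgeR adjusted p = 4.60e-04). The day 28 difference of 0.43 ± 0.14 was not called in the edgeR time fit (adjusted p = 0.0699). It was called by DESeq2 (0.42, adjusted p = 0.0373) and by edgeR without the day 14 negative library D9 (0.44, adjusted p = 0.0379). An edgeR fit of 8 groups of time and gate, with the day 7 gate from table names, also called it (0.44, adjusted p = 0.0227). Within each gate all day 28 libraries were above all undamaged ones (3.86% of all genes in the positive gate, 7.02% in the negative). Neither difference within a gate was called (0.37 ± 0.16 and 0.50 ± 0.18, edgeR adjusted p = 0.307 and 0.221).

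Pcolce, which binds the procollagen propeptide and speeds its removal, had 755, 1088 and 1258 CPM in undamaged libraries, 850.5, 1043 and 1201 CPM at day 7 and 659, 1069.9 and 1288 CPM at day 28. The means were 1039 ± 171 CPM in undamaged hearts, 1036 ± 113 at day 7, 1023 ± 123 at day 14 and 1021 ± 207 at day 28. Its log2 differences were 0.00 ± 0.14 at day 7 (edgeR adjusted p = 0.988) and -0.02 ± 0.16 at day 14 (edgeR adjusted p = 0.962). Pcolce overlaps Fbxo24 on the same strand, so that reads of the overlap can be counted for either gene or left out.

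Set against the reads of the collagens they act on, the members other than P4ha3 were at lower mean ratios at day 7 than in undamaged hearts. Reads of Col1a1, Col1a2 and Col3a1, the main fibrillar collagens of scar, summed to 14432 ± 1197 CPM in undamaged hearts, 94476 ± 13787 at day 7, 58698 ± 12443 at day 14 and 31521 ± 5749 at day 28. Per 1000 of these reads, P4ha1 had 3.50 ± 1.25 at day 7 and 23.9 ± 5.61 in undamaged hearts. The chaperone Serpinh1 had 30.1 ± 3.80 reads per 1000 at day 7 and 117 ± 23.4 in undamaged hearts. Bmp1 had 8.74 ± 1.99 and 26.1 ± 4.33, and Pcolce had 11.2 ± 2.14 and 71.9 ± 10.2. For 8 of the 10 genes, all but P4ha3 and Plod2, the day 7 libraries lay wholly below the undamaged ones in this ratio, as they did for 76.9% of all genes, so that this separation is near the background. Plod2 came nearest to keeping its ratio, at 3.94 ± 0.607 per 1000 at day 7 and 5.83 ± 1.22 in undamaged hearts, with overlapping ranges (3.35 to 4.83 and 3.81 to 7.45). P4ha3 was the exception, at 0.911 ± 0.196 per 1000 at day 7 and 0.0723 ± 0.0705 in undamaged hearts. These ratios are descriptions with no test, and the large share of collagen reads at day 7 enters each of them.

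**Figure D4:**
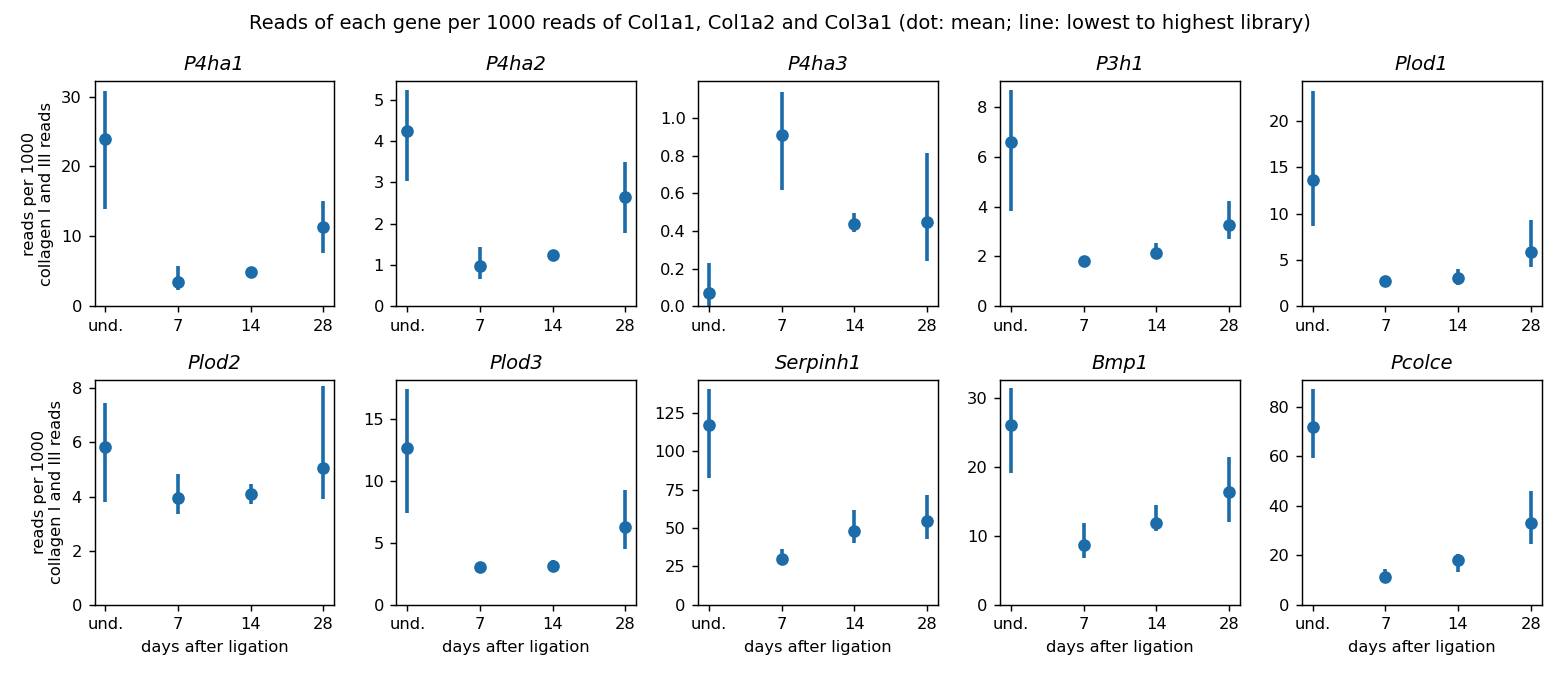
Reads of each gene per 1000 reads of Col1a1, Col1a2 and Col3a1 (vertical axes, linear, from 0) by time (horizontal axes, days after ligation), with the mean as a dot and the lowest to highest library as a line. P4ha3 is higher at day 7 than in undamaged hearts, Plod2 overlaps, and Serpinh1 is at 25.9 to 36.6 at day 7 and 82.8 to 141 in undamaged hearts.

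Between day 7 and day 28 most of the raised genes were lower again. Against day 7, 5 of the 10 genes were called lower at day 28 and 0 higher, where 5.50% of all genes were lower. P4ha3 fell by 2.60 on the log2 scale (± 0.43, edgeR adjusted p = 2.22e-04), Plod2 by 1.27 (-1.27 ± 0.20, edgeR adjusted p = 1.20e-04) and P3h1 by 0.77 (-0.77 ± 0.15, edgeR adjusted p = 0.00129). Serpinh1 was lower by the log2 difference -0.73 ± 0.17 (edgeR adjusted p = 0.00504) and Bmp1 by -0.67 ± 0.15 (edgeR adjusted p = 0.00528). In these 5 genes all 7 day 28 libraries were below all 6 day 7 libraries, a separation seen in 2.71% of all genes. Without the libraries with Xist, which leaves 2 day 7 libraries, Serpinh1 (-0.80, edgeR adjusted p = 0.124) and Bmp1 (-0.55, edgeR adjusted p = 0.200) lost the call, and Bmp1 also lost it among libraries with prefixed codes (-0.60, edgeR adjusted p = 0.0632). Plod3 (-0.56 ± 0.21, edgeR adjusted p = 0.0757) and Plod1 (-0.47 ± 0.20, edgeR adjusted p = 0.137) did not pass, though Plod3 did without the undamaged library B7 of the negative gate (-0.57, edgeR adjusted p = 0.0414) or of the positive gate (-0.56, edgeR adjusted p = 0.0494), without the 3 undamaged libraries of fewest genes (-0.58, edgeR adjusted p = 0.0131) and by DESeq2 (-0.59, adjusted p = 0.0404). The comparisons of day 28 and of day 7 with undamaged share the undamaged libraries.

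The late excess of P4ha3 was present in each Sca-1 gate. In the 20 libraries with a gate in the label and without day 7, 2 genes were higher at day 28 than in undamaged among Sca-1 positive cells (1.03% of 13812 genes) and 1 among negative cells (0.818%). P4ha3 had 6.50, 16.1, 24.2 and 28.9 CPM in the positive day 28 libraries E2, F2, B4 and B6, against 0.297 to 3.60 CPM in 5 undamaged positive ones (3.75 ± 0.60, edgeR adjusted p = 0.00270). It had 12.1, 7.58 and 6.49 CPM in the negative day 28 libraries E4, B4 and B6, against 0 to 1.48 CPM in 4 undamaged negative ones (3.72 ± 0.72, edgeR adjusted p = 0.0146). The call in the negative gate was lost without the day 28 library E4 (3.42, edgeR adjusted p = 0.0560) and in the libraries with prefixed codes (3.13, edgeR adjusted p = 0.0592). Plod2 was higher at day 28 by 0.90 ± 0.22 in positive cells (edgeR adjusted p = 0.0473), a call lost in 15 of the 20 fits that leave out a library, and by 0.80 ± 0.25 in negative cells, which was not called (edgeR adjusted p = 0.147).

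Between the gates themselves none of the 10 genes was called by edgeR. In undamaged hearts 0 of 10 passed, with 2 at an unadjusted p under 0.05 and 1 by DESeq2, where 3.10% of all genes were called. At day 14, 0 passed, with 0 at an unadjusted p under 0.05 and 0 by DESeq2 (0.0507% of all genes called). At day 28, 0 passed, with 1 at an unadjusted p under 0.05 and 0 by DESeq2 (0.594%). The change of the gate difference from undamaged to day 28 was called for 0 of 10 genes, with 0 at an unadjusted p under 0.05 and 0 by DESeq2 (0% of all genes).

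Bmp1 was higher in the Sca-1 positive library of every pair that shares a code, as were 6.13% of all genes. It had 428, 448, 437, 451 and 398 CPM in the Sca-1 positive undamaged libraries E1, E3, F3, A6 and B7, against 299, 307, 362 and 265 CPM in the negative ones E5, F3, A6 and B7. All 5 positive libraries were above all 4 negative ones, a separation seen in 4.11% of all genes, and the difference was 0.48 ± 0.16 (edgeR adjusted p = 0.124; 0.0716 with the code as a replicate block; 0.0470 by DESeq2). At day 28 it had 504, 563, 575 and 601 CPM in positive libraries, against 493, 412 and 405 CPM in negative ones, again without overlap (8.48% of all genes all higher). In the 7 pairs of libraries that share a code, Bmp1 was higher in the positive library of 7, by 0.21 to 0.59 on the log2 scale, a pattern seen in 6.13% of all genes. P4ha1 (-0.58 to 0.18), P3h1 (-0.57 to 0.15) and Plod1 (-0.73 to 0.02) were each higher in the positive library of only 1 of 7 pairs, and 16.6% of all genes were so in at most 1 pair. In undamaged hearts Plod1 averaged 161 ± 33.1 CPM in 5 positive and 239 ± 74.8 CPM in 4 negative libraries (-0.58 ± 0.22, edgeR adjusted p = 0.179), and the difference passed without the negative library B7 (-0.77, edgeR adjusted p = 0.0455) and among libraries whose code has no prefix (-0.86, edgeR adjusted p = 0.0324). P3h1 was lower in all 4 positive than in all 3 negative libraries at day 28, a separation seen in 6.91% of all genes. Its difference was -0.24 ± 0.21 (edgeR adjusted p = 0.639). For Bmp1 and P3h1, at shares of 4.11% to 8.48% of all genes, 1 member so placed is near the background for a set of this size. The undamaged, day 28 and paired comparisons of Bmp1 also share libraries, so they are not independent of each other. Mural cell markers moved with the gate, at a summed 93.0 to 138 CPM in the undamaged positive libraries and 244 to 509 CPM in the negative ones, and their part in these differences was not tested.

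**Figure D5:**
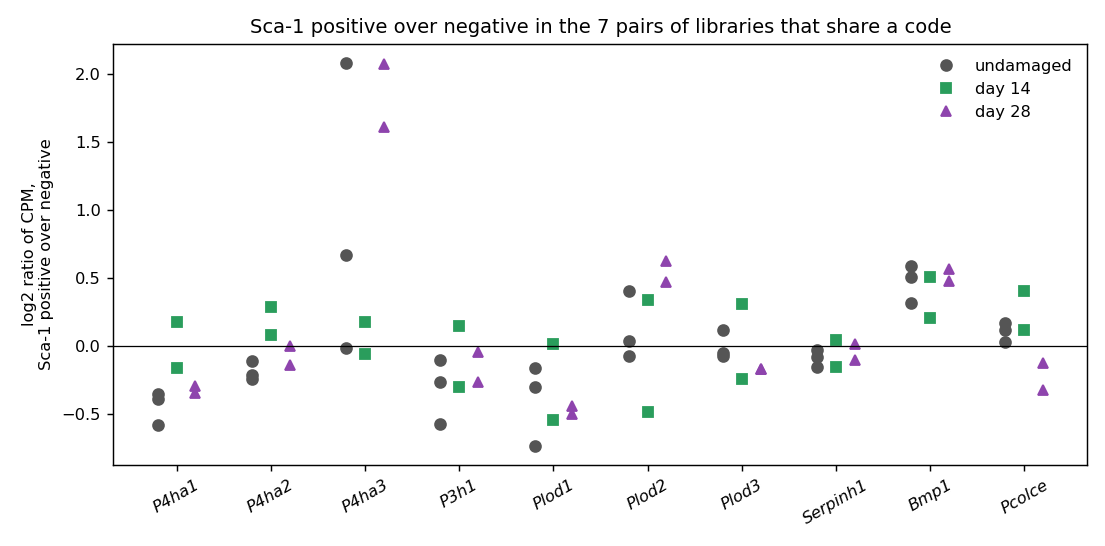
Log2 ratio of CPM, Sca-1 positive over negative (vertical axis), of each gene in the 7 pairs of libraries that share a code, marked by time. All 7 points of Bmp1 lie above 0 (0.21 to 0.59), and 6 of the 7 points of P4ha1, of P3h1 and of Plod1 lie below it.

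At day 7 the labels give a gate for only 1 library each. In these, the Sca-1 positive and negative libraries had 243 and 243 CPM of P4ha1, 74.9 and 109.6 CPM of P4ha3, 304 and 475 CPM of Plod2 and 925 and 910.2 CPM of Bmp1, with no replicate. The names of the deposited tables give a gate for the other 4 libraries as well, which is no label of the samples, although it matches the label in all 22 libraries that have both. Ly6a was at 296 and 334 CPM in the 2 so named positive and at 35.9 and 31.7 CPM in the 2 so named negative. With that gate, 5 of 10 genes were higher at day 7 than in undamaged among positive cells (3.50% of 14052 genes) and 5 among negative cells (8.82%). P4ha3, Plod2, P3h1 and Bmp1 were called in both. P4ha2 passed in positive cells (0.75 ± 0.20, edgeR adjusted p = 0.0230) and not in negative cells (0.34 ± 0.21, edgeR adjusted p = 0.283), and Serpinh1 passed in negative cells (0.72 ± 0.23, edgeR adjusted p = 0.0379) and not in positive cells (0.72 ± 0.22, edgeR adjusted p = 0.0577). No gene of the 10 was called between the gates at day 7 (0.206% of all genes, 1 of 10 at an unadjusted p under 0.05). For none was a change of the gate difference from undamaged to day 7 called (0.00712% of all genes, 1 of 10 at an unadjusted p under 0.05). The gene under 0.05 was Plod2 each time, at -0.55 ± 0.26 between the gates and -0.86 ± 0.34 for the change. These tests were by edgeR with no other tool run.

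The genes whose levels ran most like each member over the 26 libraries were read from Pearson correlations of log2 CPM, a description in which the points share time points and gates. P4ha3 was most like Cthrc1 (0.963), C1qtnf3 (0.949) and Col3a1 (0.942). Plod2 was most like Col5a2 (0.973), Actn1 (0.965) and Col1a2 (0.957). Bmp1 was most like Fn1 (0.921), Col3a1 (0.912) and Fstl1 (0.912). Both Col3a1 and Col5a2 encode fibrillar collagens, Cthrc1 a secreted protein of activated fibroblasts and Fn1 fibronectin. The genes most like the others encode proteins of other kinds. P3h1 was most like Colgalt1 (0.937), a galactosyltransferase of collagen, then Galnt10 (0.924) and Ckap4 (0.923). Plod3 was most like Prkcsh (0.944), Efemp2 (0.924) and Colgalt1 (0.904), and Serpinh1 was most like Cercam (0.895), Ckap4 (0.886) and Mmp14 (0.881). Plod1 was most like Hspg2 (0.904), Pofut2 (0.881) and Emilin1 (0.875), P4ha1 like Slco2b1 (0.827), Dnajc3 (0.801) and Asph (0.772), and P4ha2 like Srsf9 (0.836), Gpr176 (0.818) and Eprs (0.813). Pcolce was most like Ext2 (0.880), Rps6ka4 (0.865) and Shisa5 (0.823). Among the members, P4ha3 and Plod2 correlated at 0.868 and Plod2 and Bmp1 at 0.892, whereas P4ha1 and P4ha3 were at -0.315.

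Other genes of the same pathway were counted from lists that, like the members, were drawn up with earlier results of these data known. The counts are to be read beside the shares of all genes called, which were 11.5%, 5.84% and 3.45% higher and 11.2%, 3.14% and 1.94% lower at days 7, 14 and 28. Of 11 fibrillar collagen genes, 9, 8 and 7 were higher than undamaged at days 7, 14 and 28 and 0 lower at each, with median log2 differences of 2.59, 1.79 and 1.03. Col3a1 averaged 39964 CPM at day 7 and 6494 CPM in undamaged hearts (2.62 ± 0.15, edgeR adjusted p = 1.34e-12), and Col1a1 averaged 30955 and 4024 CPM (2.94 ± 0.19, edgeR adjusted p = 1.28e-11). Of 16 collagen modification partners, 6 were higher and 1 lower at day 7, 1 and 1 at day 14, and 2 and 0 at day 28. Sparc, a collagen-binding matrix protein, averaged 13098 CPM at day 7 and 3174 CPM in undamaged hearts (2.04 ± 0.15, edgeR adjusted p = 7.78e-11), and Fkbp10, a prolyl isomerase that aids lysyl hydroxylation, averaged 294 and 151 CPM (0.96 ± 0.17, edgeR adjusted p = 1.49e-04). The galactosyltransferases went opposite ways at day 7, Colgalt1 being higher by 0.53 ± 0.11 (edgeR adjusted p = 9.32e-04) and Colgalt2 lower at -0.97 ± 0.15 (edgeR adjusted p = 2.01e-05). P4hb, the beta subunit that pairs with all 3 alpha subunits, was not called at day 7 (0.22 ± 0.11, edgeR adjusted p = 0.169), with means of 1149 ± 151 CPM at day 7 and 987 ± 111 CPM in undamaged hearts.

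Of 8 procollagen processing partners that passed the low-count filter, of 11 listed, 5 were higher and 2 lower at day 7 (11.5% and 11.2% of all genes), 4 and 1 at day 14 (5.84% and 3.14%), and 3 and 0 at day 28 (3.45% and 1.94%). Adamts2, which removes the N-terminal propeptide, averaged 1461 CPM at day 7 and 547 CPM in undamaged hearts (1.42 ± 0.14, edgeR adjusted p = 5.76e-08). Furin, which activates the zymogen of BMP1, was higher at day 7 only of the 3 times (0.77 ± 0.15, edgeR adjusted p = 6.60e-04). Fn1 and Postn, matrix proteins that bind BMP1, were higher at day 7 by 4.25 ± 0.49 (edgeR adjusted p = 5.05e-07) and 3.75 ± 0.45 (edgeR adjusted p = 7.87e-07). The Pcolce paralog Pcolce2 was lower at day 7 (-0.92 ± 0.25, edgeR adjusted p = 0.00891).

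General endoplasmic reticulum folding genes did not pass at any time. Of 14, 0 were called by edgeR and 0 by DESeq2 at days 7, 14 and 28, with 1, 0 and 1 at an unadjusted p under 0.05, where 11.5%, 5.84% and 3.45% of all genes were higher and 11.2%, 3.14% and 1.94% lower. Hspa5, the BiP chaperone, had a log2 difference of -0.14 ± 0.27 at day 7 (edgeR adjusted p = 0.761), and Pdia6, a disulfide isomerase, had 0.39 ± 0.17 (edgeR adjusted p = 0.0983). Of 15 tested genes of the hypoxia response, 2 were higher and 3 lower at day 7, 1 and 1 at day 14, and 1 and 0 at day 28. These counts, and those of the dioxygenases that follow, are near the shares of all genes at day 7. Hif1a, the transcript of the factor itself, was higher at day 7 (1.54 ± 0.17, edgeR adjusted p = 1.90e-07). Adm, encoding the peptide adrenomedullin, was lower (-1.91 ± 0.31, edgeR adjusted p = 6.11e-05), as were the glycolytic genes Aldoa (-0.57 ± 0.17, edgeR adjusted p = 0.0180) and Pgk1 (-0.82 ± 0.28, edgeR adjusted p = 0.0348). Pgk1 ranges overlapped, at 17.1 to 27.8 CPM at day 7 and 16.0 to 65.6 CPM in undamaged hearts. Other listed genes had higher means at day 7 than in undamaged hearts, such as Pdk1 (17.6 and 10.8 CPM) and Ldha (293 and 263 CPM). Of 12 other 2-oxoglutarate dioxygenases, 1 was higher and 1 lower at day 7, 1 and 2 at day 14, and 1 and 0 at day 28. Those were Ogfod3 (1.20 ± 0.23 at day 7, edgeR adjusted p = 5.04e-04) on the higher side at each time and P4htm, a transmembrane prolyl hydroxylase, on the lower side at days 7 and 14 (-0.49 ± 0.14 and -0.56 ± 0.16, edgeR adjusted p = 0.00915 and 0.0217), with Jmjd6 lower at day 14 (-0.50 ± 0.14, edgeR adjusted p = 0.0254).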

How the data were processed

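Per the labels' protocols, RNA of sorted cells went into a stranded mRNA library kit and was sequenced as paired ends. The authors deposited raw counts, whole numbers of reads per gene with no normalization, for each of 26 libraries. Build mm10 and the programs STAR, TopHat, Bowtie2, Cufflinks and bcl2fastq are named, per the submitters' processing notes, without a role for each. The counting program, its strand setting and its annotation are not given in the sources used here. Reads outside genes and reads shared by several genes (0.128% to 0.646%) were left out of library sizes. The counts carry no molecular identifiers, so floors of 3 counts cover counting error only.

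Differences were tested with edgeR 4.0.16 under R 4.3.3 (TMM scaling, filterByExpr, two-sided quasi-likelihood tests, Benjamini-Hochberg over all genes tested). The time fit held 26 libraries and 13392 genes. The fit by gate took 20 libraries, 6 groups and 13812 genes, without the 6 libraries of day 7. A fit of 8 groups took the day 7 gate from table names. DESeq2 1.42.0 was an alternative. The fitting code was tested on simulated data. CPM per kilobase used the union of GENCODE M21 exons, and 0.5 CPM was added in ratios between paired libraries.

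The members and lists were chosen with earlier results of these data known. Named were all members, the list genes with the smallest p (others of a list were named after their values were seen) and the genes of highest correlation with each member (mean log2 CPM of at least 3). The titles give the same code to a positive and a negative library 7 times. After subtracting group means, these libraries correlated with each other at 0.190 to 0.415 and libraries of different codes at -0.415 to 0.422. At day 14, with 2 libraries per gate, the values for the same and for different codes can differ only in sign (0.415 and -0.415). As each pair was above 0.1, codes were treated as pairs in alternative fits only. These took the code as a block in gate comparisons and summed the counts of a code in time comparisons. The fits reported have no term for the code, so libraries that share a code count there as separate replicates. Letter codes stand alone in the title, prefixed codes follow further letters or digits there, and what the difference marks is not given.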

Additional observations from a re-analysis of the deposited data

Results flagged for a closer look

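P3h1 stood apart in the undamaged libraries with code B7, at 50.2 CPM in the Sca-1 positive one, where the other 4 positive libraries held 94.9 to 109 CPM, and at 74.8 CPM in the negative one, where the other 3 held 108 to 114 CPM. P4ha2 was at 70.1 CPM in the Sca-1 negative day 7 library whose label gives the gate, below the other 5 day 7 libraries at 90.0 to 102 CPM. In each case the gap to the nearest library was larger than Dixon's limit at 95% for a group of that size. These were 3 of 40 such tests, and chance alone marks about 1 group in 20.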

How the results depend on the processing

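P4ha3, Plod2, P3h1 and Bmp1 at day 7, P4ha3, Plod2 and Bmp1 at day 14, and P4ha3 and Plod2 at day 28 against undamaged passed in every alternative that could be run and every fit that left out a library. Letter codes alone could not be run for days 7 and 14, which hold none, while undamaged hearts hold both kinds of code. Of the undamaged libraries only A6 and B7 of both gates have prefixed codes, so kind of code goes partly with time. No difference called in the fits reported changed direction in any alternative. Plod3 at day 28, not called there, was higher among prefixed codes (0.76) and lower among letter codes (-0.54). It was at -0.76 and called among letter codes of the positive gate. Letter codes hold only E2, F2 and E4 at day 28, and 55.8% of the reads of E2 lay outside genes. Without the libraries with Xist, 4 genes passed at day 7 and 3 at day 28 against day 7; these fits keep 2 day 7 libraries. Among prefixed codes only, 4 genes passed at day 28 against undamaged (P4ha2 and Plod3 were added), 1 in the positive gate and 0 in the negative. Among letter codes only, 3 passed in the positive gate (Plod3 lower) and 1 (Plod1, lower) between the gates in undamaged hearts, where DESeq2 called 1 (Bmp1, higher). The negative gate keeps only the library E4 at day 28 among letter codes, with a Plod2 difference of 1.04. Leaving out each library gave 1 to 2 genes at day 28 in the positive gate, 0 to 1 in the negative and 0 to 1 between the gates in undamaged hearts, where B7 of the negative gate decided it. The cause of these changes was not tested. With the replicate block, 6 genes passed at day 7, 3 at day 14, 2 at day 28 and 5 at day 28 against day 7. It gave 0 in each gate comparison. The calls it changed were those of Plod3 at day 7 and Serpinh1 at day 14. No day 7 libraries share a full code, so none of them were summed, and the block cannot allow for pairs among them. The codes 1A and 1B share a number, as do 4A and 4B, with opposite gates in the table names. Whether these are pairs is not given, and the day 7 tests count them as separate libraries. Leaving out the 3 undamaged libraries with fewest genes was chosen after seeing the data. Depth limits P4ha3 in undamaged hearts, where it had at most 73 reads.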
